A study of Homo sapiens with 32 samples.

Results

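The Src family kinases are membrane-anchored tyrosine kinases, and 5 of them, SRC, LYN, FGR, FYN and YES1, were followed here together with CSK, the kinase that switches them off. All probes annotated to these 6 genes were taken, which gave 13 of the 24518 probes and 6 of the 16920 named genes of the array. The 6 genes were chosen with their responses on these same arrays known. Their differences between treatments are therefore given as a description, with standard errors. Calls of the fit over all probes are counted only beside the share called among all probes, with the settings that end them, and nothing is read from them.

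RNA came from THP-1 cells, an established human monocytic leukaemia line, on 32 Illumina HumanRef-8 V3.0 arrays, 8 for each of 4 treatments that all lasted 24 h. Cells received LPS at 100 ng/ml plus TGFβ1 at 1 ng/ml, LPS alone at 100 ng/ml, TGFβ1 alone at 1 ng/ml, or PBS as the control. LPS, from the outer membrane of Gram-negative bacteria, activates TLR4, and TGFβ1 is a cytokine that acts through SMAD proteins; the series set out to see what the 2 stimuli do at the same time. The labels do not say whether separate cultures lie behind the arrays of a treatment, so errors and p-values cover array-to-array spread that may be technical.

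Src family kinases sit on the inner face of the plasma membrane through lipid anchors. A phosphate that CSK places on a tyrosine of their tail folds them into a closed form, and phosphatases that remove it let them open. In monocytes and macrophages they phosphorylate the signalling tails of Fc receptors, integrins and paired immune receptors, and LYN does so for activating and for inhibitory receptors alike.

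Once treatment means were removed, a first principal component with 42.2% of the remaining variance divided the arrays of every treatment into 2 sets, of 14 and 18 arrays in all. The kinases followed here and the genes of the lists around them, described below, were left out of its computation. Set 1 held 4 arrays each of LPS+TGFβ1 and LPS and 3 each of TGFβ1 and PBS; set 2 held 4, 4, 5 and 5. The sets were found in the data, so values within them are given as a description. Each of the 4 chips held 2 arrays of every treatment. All arrays of chip 2 fell in set 1 and all of chip 3 in set 2. Treatments lay at fixed positions of a chip, so position and treatment cannot be told apart. By the labels, 4 of the LPS+TGFβ1 arrays share their place on a chip with a TGFβ1 array, so the labels of each such pair cannot both be right. Between 12218 and 13587 probes per array passed the background limit, and all 11 measured monocyte markers, among them CD14, LYZ and CSF1R, did so on all 32 arrays. Their summed intensity was 90950 to 112000 with LPS+TGFβ1, 89190 to 120400 with LPS, 55390 to 70800 with TGFβ1 and 31700 to 50960 with PBS. The T cell markers CD3D, CD3G and CD2 passed it on none, and CD3E passed it with LPS, though not on all 8 arrays, and on no array of the other treatments. The NK cell markers NKG7 and KLRF1 passed it on all 8 arrays of every treatment, and KLRD1 on no array. The 5 measured NK cell markers summed to 967.4 to 1311 with LPS+TGFβ1, 1201 to 1621 with LPS, 661.5 to 864.6 with TGFβ1 and 485.4 to 886.3 with PBS. The B cell marker CD79B passed the limit on all 8 arrays with LPS+TGFβ1, TGFβ1 and PBS, and the epithelial marker CDH1 on all 8 with LPS+TGFβ1. The B cell marker PAX5 and the epithelial markers EPCAM, KRT19 and KRT5 passed it on no array. The part of these markers in the results was not tested. The number of arrays limits the precision.

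Promoter windows from RefSeq (GRCh38.p14), each of 300 bases, were at hand for 4 of the 6 genes. Most bases of a window lie upstream of an annotated start and the rest downstream of it. The windows of FGR, CSK and YES1 are shown because these genes stood for 3 of the patterns seen below: higher with either stimulus, higher mainly with LPS, and lower with LPS. The windows of FYN, which had a further pattern and was lowest with both stimuli, are not printed. Capitals mark matches, on either strand, to short forms of motifs for factors downstream of these stimuli or of the myeloid lineage: GGNNNTTCC for NF-kB, CAGAC for SMAD proteins, GAGGAA for PU.1, TGANTCA for AP-1 and TTCNNTTTC for interferon response elements. The matches in the printed windows do not overlap each other.
FGR chr1:27635136-27635435, minus strand: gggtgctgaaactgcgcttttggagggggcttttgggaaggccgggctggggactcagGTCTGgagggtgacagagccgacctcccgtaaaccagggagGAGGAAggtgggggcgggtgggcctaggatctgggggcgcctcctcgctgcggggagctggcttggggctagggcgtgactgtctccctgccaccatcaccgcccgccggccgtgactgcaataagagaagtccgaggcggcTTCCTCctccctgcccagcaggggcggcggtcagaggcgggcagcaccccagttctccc
CSK chr15:74788294-74788593, plus strand: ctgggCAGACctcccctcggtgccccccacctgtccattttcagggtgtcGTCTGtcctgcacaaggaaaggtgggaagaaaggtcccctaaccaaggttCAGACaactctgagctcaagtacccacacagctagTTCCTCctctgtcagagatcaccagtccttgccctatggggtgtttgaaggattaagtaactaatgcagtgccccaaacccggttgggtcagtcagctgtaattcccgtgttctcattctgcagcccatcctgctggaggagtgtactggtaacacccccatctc
YES1 chr18:812193-812492, minus strand: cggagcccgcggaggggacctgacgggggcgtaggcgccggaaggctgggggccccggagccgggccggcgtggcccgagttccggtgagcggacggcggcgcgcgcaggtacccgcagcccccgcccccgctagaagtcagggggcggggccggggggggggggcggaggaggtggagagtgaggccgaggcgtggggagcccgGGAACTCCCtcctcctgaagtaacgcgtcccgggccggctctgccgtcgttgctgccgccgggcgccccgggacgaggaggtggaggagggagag

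The FGR window held GAGGAA 151 and 9 bases before the start and CAGAC 192 bases before it. The CSK window held CAGAC 245, 200 and 150 bases and GAGGAA 115 bases before the start. The YES1 window held 1 match, to GGNNNTTCC, 45 bases before the start. Such matches are common: of 35116 human windows of this length, 27.9% held GAGGAA, 45.3% CAGAC, 20.1% GGNNNTTCC, 7.71% TGANTCA and 8.11% TTCNNTTTC. A second FGR window, from a start further along the gene, held no match to these letters, and the 4 FYN windows held CAGAC in 3 cases and GGNNNTTCC in 1.

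Of the 13 probes of the 6 genes, 13 passed the filter on dim probes and 11 were above background on at least 1 array. One SRC probe and one FGR probe were below background on all 32 arrays and give no level. Intensities are on the deposited linear scale, and differences are of log2(intensity + 50), a scale that understates the changes of dim probes. Fold values are these log2 differences put back on a linear scale, so they are not ratios of mean intensities. Levels of different probes are not compared with each other, since probes bind with different strength.

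SRC, the founding member of the family, had the largest log2 difference between treatments of the 6 genes. Its bright probe (ILMN_1729987) had a lowest, median and highest intensity of 1672, 1944 and 2578 with LPS+TGFβ1, and of 2712, 4897 and 7675 with LPS. The same probe had 542, 730.3 and 913 with TGFβ1, and 99.4, 162 and 208 with PBS. No pair of treatments overlapped: every LPS array lay above every LPS+TGFβ1 array, these above every TGFβ1 array, and these above every PBS array. The mean was 22.3-fold higher with LPS than with PBS, a log2 difference of 4.48 ± 0.19 (SE, n = 8 arrays each). TGFβ1 alone stood 1.90 ± 0.19 log2 units above PBS, and LPS+TGFβ1 stood 3.31 ± 0.19 above PBS.

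The level of SRC with both stimuli was below that with LPS alone, by 1.17 ± 0.19 log2 units, and the size of this gap differed between the sets. The LPS arrays themselves fell apart: they had 2712 to 3269 in set 1 and 6524 to 7675 in set 2. The LPS+TGFβ1 arrays showed no such split, with 1882 to 2578 in set 1 and 1672 to 2001.5 in set 2. LPS+TGFβ1 minus LPS was accordingly -0.39 ± 0.11 in set 1 and -1.95 ± 0.12 in set 2, and LPS minus PBS was 3.64 ± 0.12 and 5.24 ± 0.11. LPS+TGFβ1 minus PBS was alike, with 3.24 ± 0.12 in set 1 and 3.30 ± 0.11 in set 2. A dimmer SRC probe (ILMN_1685898) was above background on 2 LPS+TGFβ1 arrays, 5 LPS arrays, and none of the TGFβ1 or PBS arrays. With LPS it was at least 1.17-fold higher than with PBS.

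LYN encodes the kinase that phosphorylates immunoreceptor tails in many myeloid and B lineage cells. Its probe had a lowest, median and highest intensity of 13953, 18295 and 22909 with LPS+TGFβ1, and of 17010, 25216 and 35127 with LPS. It had 4593, 5587 and 6040.3 with TGFβ1 and 4111, 4879 and 5429 with PBS. The arrays with LPS, with or without TGFβ1, all lay above those without it, while within these 2 pairs the treatments overlapped. LYN was 5.14-fold higher with LPS than with PBS (log2 difference 2.36 ± 0.13) and 0.20 ± 0.13 log2 units higher with TGFβ1 alone. LPS+TGFβ1 minus LPS was -0.45 ± 0.13. The overlap of these 2 treatments lay between the sets, since LYN had 13953 to 16268 with LPS+TGFβ1 against 17010 to 20730 with LPS in set 1, and 20322 to 22909 against 29701 to 35127 in set 2.

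FGR encodes a kinase of granulocytes, monocytes and macrophages that acts downstream of integrins and Fc receptors. Its bright probe (ILMN_2368318) had a lowest, median and highest intensity of 1888, 2328 and 3063 with LPS+TGFβ1 and of 2953, 3006 and 3317 with LPS. It had 1486, 1551.5 and 1649 with TGFβ1 and 471, 543 and 716 with PBS. By this probe both single stimuli left FGR clear of the PBS arrays, and LPS+TGFβ1 overlapped only LPS. The log2 difference from PBS was 2.31 ± 0.09 with LPS, 1.37 ± 0.09 with TGFβ1 and 1.94 ± 0.09 with both. The second measured FGR probe (ILMN_1795158) gave 2.14 ± 0.09, 1.19 ± 0.09 and 1.71 ± 0.09. By that second probe LPS+TGFβ1 overlapped TGFβ1 as well, with 528 to 857 against 408 to 539. LPS+TGFβ1 minus LPS was -0.37 ± 0.09 and -0.44 ± 0.09 by the 2 probes. By the bright probe that difference was -0.15 ± 0.07 in set 1, where the treatments overlapped, and -0.59 ± 0.06 in set 2, where they did not.

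**Figure D1:**
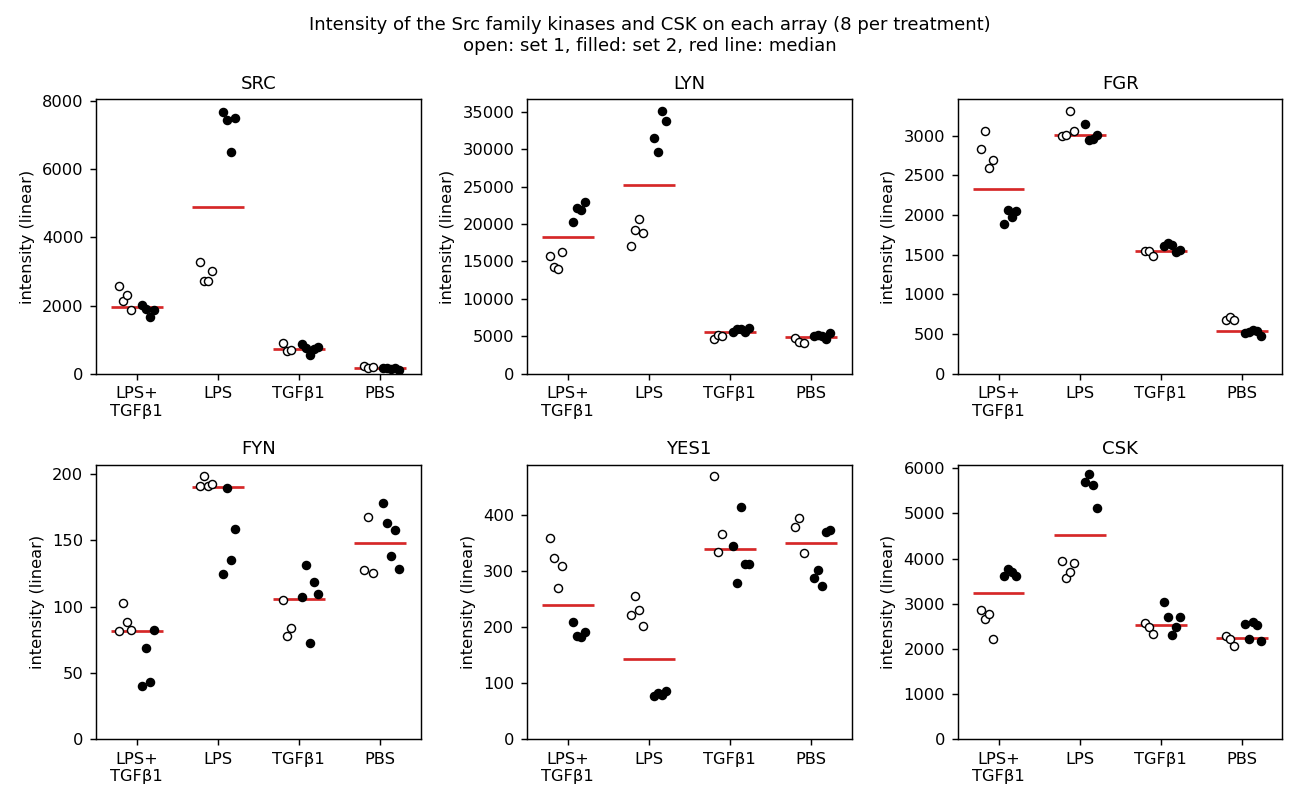
Deposited intensity (linear scale) of the brightest probe of SRC, LYN, FGR, FYN, YES1 and CSK on each of the 32 arrays, by treatment; open points are set 1, filled points set 2, red lines medians of 8 arrays. The SRC, LYN, YES1 and CSK arrays with LPS split into the 2 sets, with SRC at 2712 to 3269 in set 1 and 6524 to 7675 in set 2. The LYN, FGR, YES1 and CSK arrays with LPS+TGFβ1 split by set as well.

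FYN encodes a kinase found in most tissues, best known from T cells and neurons, and it was measured by 4 probes that target 3 RefSeq transcripts. The probe ILMN_1686555 had a lowest, median and highest intensity of 40.0, 81.7 and 102 with LPS+TGFβ1 and of 124, 189.8 and 198 with LPS. It had 72.2, 106 and 131 with TGFβ1 and 125, 148 and 178 with PBS. The LPS+TGFβ1 arrays were the lowest, below every LPS and every PBS array, and the other neighbours in the order overlapped. Over all arrays LPS minus PBS was small by the 4 probes, from 0.09 ± 0.10 to 0.24 ± 0.09 log2 units, but the sets differed. It lay between 0.32 ± 0.10 and 0.50 ± 0.14 in set 1 and between -0.19 ± 0.10 and 0.13 ± 0.09 in set 2. By the probe ILMN_1781207 it was 0.53 within chip 2 and -0.31 within chip 3. TGFβ1 minus PBS lay between -0.40 ± 0.10 and -0.23 ± 0.10.

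The 4 FYN probes shared the lower level with both stimuli. LPS+TGFβ1 minus LPS was -0.86 ± 0.10 and -0.69 ± 0.09 by the 2 probes for NM_002037, -0.66 ± 0.10 by the probe for NM_153047 and -0.79 ± 0.08 by the probe for NM_153048. No LPS+TGFβ1 array overlapped an LPS array by any of the 4. The values stayed apart in both sets: by ILMN_1686555 LPS+TGFβ1 minus LPS was -0.81 ± 0.09 in set 1 and -0.90 ± 0.13 in set 2. FYN was dim, and the probes ILMN_2249920 and ILMN_2380801 passed the background limit on 4 and 3 of 8 arrays with LPS+TGFβ1 and on 8 of 8 with LPS. LPS+TGFβ1 minus TGFβ1 differed between the sets by the probe ILMN_1686555, with 0.00 ± 0.09 in set 1 and -0.55 ± 0.13 in set 2.

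**Figure D2:**
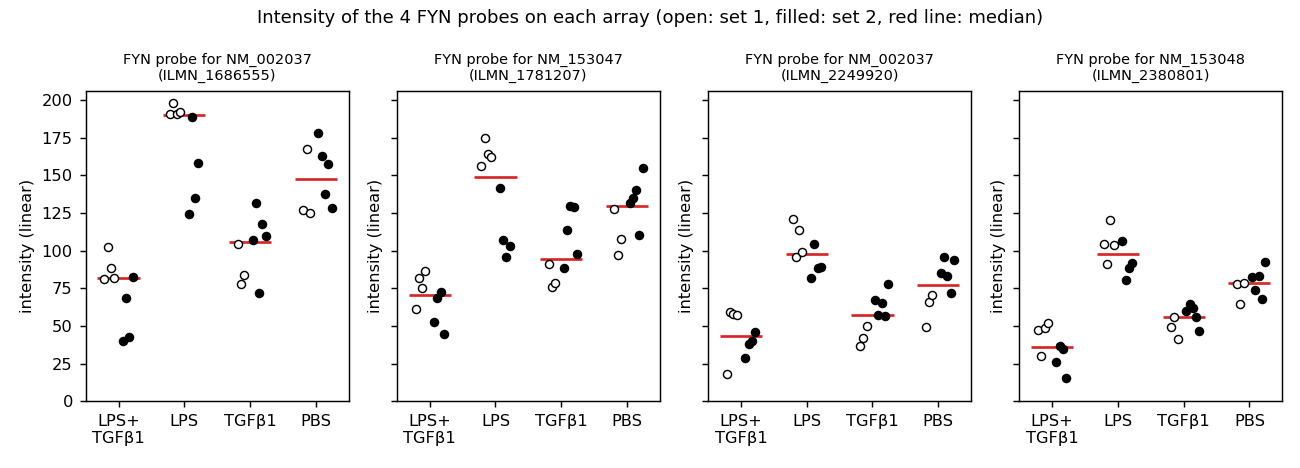
Deposited intensity (linear scale) of the 4 FYN probes on each array, by treatment; open points are set 1, filled points set 2, red lines medians of 8 arrays. By each probe the 8 LPS+TGFβ1 arrays lie below the 8 LPS arrays.

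YES1 encodes a widely expressed close relative of SRC, and by the brightest probe of each gene it was the only one of the 6 that was lower with LPS. Its probe had a lowest, median and highest intensity of 183, 239 and 358 with LPS+TGFβ1 and of 77.5, 144 and 256 with LPS. It had 279, 338 and 468 with TGFβ1 and 273, 350.2 and 394 with PBS. The LPS arrays were the lowest and did not overlap the PBS arrays, and the TGFβ1 and PBS arrays covered nearly the same range. YES1 was 2.03-fold lower with LPS than with PBS (log2 difference -1.02 ± 0.17). LPS+TGFβ1 minus LPS was 0.64 ± 0.17, so the level with both stimuli lay between those with LPS and with PBS. As for SRC, the LPS arrays split by set, with 202 to 256 in set 1 and 77.5 to 85.9 in set 2. LPS minus PBS was -0.59 ± 0.11 in set 1 and -1.49 ± 0.09 in set 2, and LPS+TGFβ1 minus LPS was 0.39 ± 0.10 and 0.88 ± 0.10. Within single chips LPS+TGFβ1 minus LPS ranged from 0.24 to 0.83.

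CSK, which phosphorylates the inhibitory tail tyrosine of the other 5 kinases, was higher with LPS as well. Its probe had a lowest, median and highest intensity of 2217, 3236 and 3772 with LPS+TGFβ1 and of 3562, 4526 and 5871 with LPS. It had 2304, 2536 and 3029 with TGFβ1 and 2064.5, 2252 and 2603 with PBS. LPS arrays lay above all PBS arrays, and each other pair of neighbours in the order LPS, LPS+TGFβ1, TGFβ1 and PBS overlapped. CSK was 1.95-fold higher with LPS than with PBS (log2 difference 0.96 ± 0.11). TGFβ1 minus PBS was 0.14 ± 0.11 and LPS+TGFβ1 minus LPS was -0.56 ± 0.11. By set, LPS minus PBS was 0.77 ± 0.09 in set 1 and 1.19 ± 0.08 in set 2, and LPS+TGFβ1 minus PBS was 0.25 ± 0.09 and 0.60 ± 0.08. LPS+TGFβ1 minus TGFβ1 was 0.08 ± 0.09 in set 1 and 0.47 ± 0.08 in set 2. LPS+TGFβ1 minus LPS was alike in the sets, -0.52 ± 0.08 in set 1 and -0.59 ± 0.08 in set 2, and LPS+TGFβ1 and LPS arrays of the same set did not overlap.

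Counted over the 11 probes above background, LPS against PBS had 8 called higher and 1 called lower at a limma adjusted p under 0.05, beside 20.9% and 21% of all 18388 probes tested. TGFβ1 against PBS had 3 called higher and 2 lower, beside 7.54% and 5.7% of all probes. LPS+TGFβ1 against PBS had 6 called higher and 4 lower, beside 18% and 21.9%. LPS+TGFβ1 against LPS had 1 called higher, YES1, and 10 lower, beside 8.19% and 10.1%. LPS+TGFβ1 against TGFβ1 had 4 called higher and 3 lower, beside 14.9% and 16.5%. Because these contrasts chose the genes, nothing is read from the counts. The median log2 difference of the 11 probes was 0.69, 0.05, 0.31, -0.56 and 0.27 in these 5 comparisons, and over all probes it was 0.05, -0.04, -0.04, -0.07 and -0.01. After scaling every array to the same median, the calls over all probes split differently, into 2626 higher and 4856 lower in place of 3848 and 3857 for LPS against PBS, and into 2066 and 884 in place of 1506 and 1861 for LPS+TGFβ1 against LPS. Under that scaling LPS+TGFβ1 minus LPS remained negative for LYN (-0.33) and both FGR probes (-0.32 and -0.25), but no longer passed the threshold; the LYN difference also missed it without replicate number 2 (-0.43) and in a fit of only the 2 groups compared (-0.45). The dimmer SRC probe also lost its call for LPS+TGFβ1 against LPS after scaling to the same median (-0.31), as it did with an offset of 16 (-0.58) and without replicate number 2, 4, 5 or 6 (-0.38 to -0.33). Its call for LPS+TGFβ1 against PBS was lost with an offset of 100, without the filter and in a fit of only the 2 groups compared. That call was also lost without any single one of replicate numbers 1, 3, 4, 5, 6 or 7. The FYN probe ILMN_1686555 lost its call for LPS+TGFβ1 against TGFβ1 without replicate number 2, 5 or 7 and in a fit of only these 2 groups. Fits within single sets or chips ended further calls. The call of LPS over PBS for the FYN probe ILMN_2249920 was lost with an offset of 16 and without the filter. It was also lost without any single one of replicate numbers 1, 3, 4, 5 or 7. That of the FYN probe ILMN_2380801 was lost without number 3, 4 or 7. Both calls were lost under both other scalings, with 0.18 and 0.17 after quantile normalization and 0.15 and 0.12 after scaling to the same median. Of the 66 differences of the 11 probes, 1 changed sign with it, LPS minus PBS of the FYN probe ILMN_1781207 (-0.01 in place of 0.09).

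**Figure D3:**
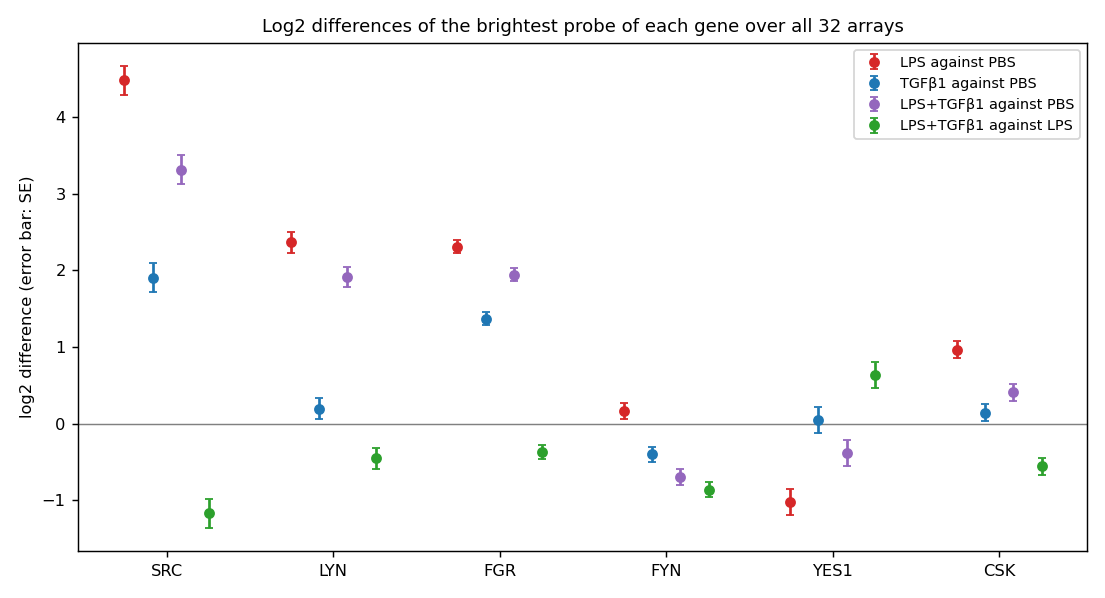
Log2 differences of the brightest probe of each gene over all 32 arrays, for LPS against PBS, TGFβ1 against PBS, LPS+TGFβ1 against PBS and LPS+TGFβ1 against LPS; bars are standard errors of the fit. SRC, LYN, FGR and CSK were higher with LPS than with PBS, YES1 was lower, and LPS+TGFβ1 minus LPS was negative for every gene except YES1.

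SRC, FGR, LYN and CSK, the genes higher with LPS, had a smaller LPS effect in the presence of TGFβ1. For SRC it was 1.41 ± 0.19 log2 units with TGFβ1 (LPS+TGFβ1 minus TGFβ1) and 4.48 ± 0.19 without it (LPS minus PBS), a difference between the 2 effects of -3.07 ± 0.27. For FGR it was 0.57 ± 0.09 with TGFβ1 and 2.31 ± 0.09 without it, a difference of -1.73 ± 0.12. The FGR effect with TGFβ1 was 0.85 ± 0.07 in set 1 and 0.31 ± 0.06 in set 2. Since TGFβ1 alone already gave SRC and FGR higher levels than PBS, the comparison with TGFβ1 starts from a higher base for these 2 genes. LYN and CSK had differences of -0.65 ± 0.19 and -0.70 ± 0.15, and their levels with TGFβ1 alone overlapped those with PBS.

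For FYN the difference between the 2 effects lay between -0.50 ± 0.11 and -0.44 ± 0.13 by the 4 probes, and for YES1 it was 0.59 ± 0.24. Of the 11 probes, 0 were called higher and 7 lower in this interaction, beside 2.82% and 4.46% of all probes tested; the 4 without a call were the dim SRC probe, 2 FYN probes and YES1, and all 4 were called with the set as a block, YES1 in the higher direction. After scaling to the same median, all probes split into 729 higher and 419 lower in the interaction in place of 518 and 821. Within the sets the SRC difference was -2.13 ± 0.17 and -3.95 ± 0.16, the FGR difference -1.24 ± 0.10 and -2.12 ± 0.08, and the CSK difference -0.69 ± 0.12 and -0.72 ± 0.11. Within the 4 chips, which held 2 arrays of each treatment, the SRC difference ranged from -3.72 to -1.94.

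**Figure D4:**
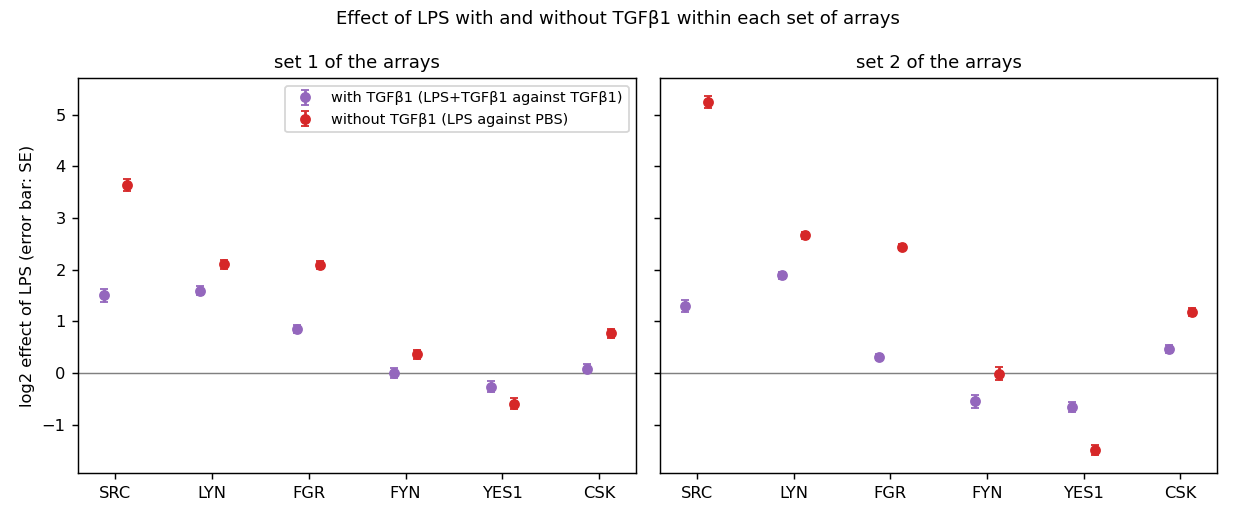
Log2 effect of LPS with TGFβ1 (LPS+TGFβ1 against TGFβ1) and without it (LPS against PBS), for the brightest probe of each gene, within set 1 and within set 2; bars are standard errors of the fit. The effect on SRC and FGR was smaller with TGFβ1 in both sets, and the effect without TGFβ1 on SRC was 3.64 in set 1 and 5.24 in set 2.

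Listed genes around these kinases were read from the same fit. The lists, like the kinases, were chosen with earlier results of these data known. Their counts and adjusted p-values, here and in the paragraphs below, are therefore a description and not independent support. Of 107 genes in 6 lists, 99 had a probe and 92 passed the filter; 41 rose and 17 fell with LPS against PBS, 20 rose and 9 fell with TGFβ1 against PBS, and 13 rose and 18 fell with LPS+TGFβ1 against LPS. The shares of all probes called higher and lower were 20.9% and 21% with LPS, 7.54% and 5.7% with TGFβ1, and 8.19% and 10.1% in the last comparison, and the counts of each list are to be set beside these. The 17 falls among 92 genes with LPS lie near that share. The median log2 difference of the 92 genes was 0.16, 0.05 and -0.07 in these comparisons, and that of all probes 0.05, -0.04 and -0.07. After scaling to the same median the last comparison had 16 rises and 9 falls. Among the other family and related kinases LCK, PTK6 and SRMS were tested and none was called in these 3 comparisons. LCK was above background on 1 of 8 LPS arrays and 1 of 8 PBS arrays, SRMS on none, and PTK6 had a log2 difference of -0.06 ± 0.07 with LPS (limma adjusted p = 0.551).

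The list of brakes on the family had 9 rises and 5 falls among 19 genes with LPS against PBS. SLA, a Src-like adaptor that directs receptors to degradation, rose by 1.61 ± 0.33 (adjusted p = 0.000159). Set 1 alone gave 0.77 for it and set 2 gave 2.44. PTPN6, the phosphatase SHP-1, rose by 1.18 ± 0.10 (adjusted p = 3.03e-12). PTPN22, a phosphatase that binds CSK, changed by -1.21 ± 0.09 (adjusted p = 9.59e-14), with 2 of 8 LPS arrays above background. MATK, a relative of CSK, fell by 0.69 ± 0.26 (adjusted p = 0.0318), and set 1 alone gave -0.07, set 2 alone -1.30.

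With TGFβ1 against PBS the brakes had 3 rises and 3 falls. PAG1, the membrane adaptor that recruits CSK, rose by 0.77 ± 0.15 (adjusted p = 0.00035), and CBLB, a ubiquitin ligase of activated kinases, rose by 0.37 ± 0.11 (adjusted p = 0.0166). PTPN22 fell by 0.45 ± 0.09 (adjusted p = 0.000189) and PTPN6 by 0.32 ± 0.10 (adjusted p = 0.0191). LPS+TGFβ1 against LPS also had 3 rises and 3 falls. CBLB rose by 0.49 ± 0.11 (adjusted p = 0.00136; 0.65 within set 1 and 0.32 within set 2) and PAG1 by 0.42 ± 0.15 (adjusted p = 0.0496). PTPN6 fell by 1.16 ± 0.10 (adjusted p = 2.58e-11), to 2552 ± 618 with LPS+TGFβ1, against 5649 ± 382 with LPS (SD, n = 8 each). DOK2, an adaptor that dampens kinase signalling, fell by 1.06 ± 0.17 (adjusted p = 1.49e-05).

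Of the 3 tested phosphatases that remove the tail phosphate, 2 rose with LPS. PTPRE rose by 1.79 ± 0.17 (adjusted p = 1.27e-10) and PTPRC, which is CD45, by 1.04 ± 0.26 (adjusted p = 0.00132; 0.46 within set 1 and 1.55 within set 2). None was called with TGFβ1 against PBS. PTPRE fell by 1.25 ± 0.17 in LPS+TGFβ1 against LPS (adjusted p = 1.04e-06), where set 1 alone gave -0.72 and set 2 alone -1.78.

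Receptors that signal through the family had 18 rises and 3 falls among 27 genes with LPS, 10 rises and 1 fall with TGFβ1, and 7 rises and 6 falls in LPS+TGFβ1 against LPS. PILRA, a paired inhibitory receptor, rose with LPS by 2.61 ± 0.17 (adjusted p = 6.77e-15) and the scavenger receptor CD36 by 2.32 ± 0.14 (adjusted p = 8.95e-16). KIT, the receptor for stem cell factor, fell by 3.16 ± 0.44 (adjusted p = 2.91e-07; -1.70 within set 1 and -3.99 within set 2), and CSF3R, the receptor for granulocyte colony-stimulating factor, by 1.35 ± 0.12 (adjusted p = 3.18e-11). TREM2, a lipid-sensing receptor of macrophages and microglia, had 768 ± 91.9 with TGFβ1, against 91.5 ± 22.7 with PBS (SD, n = 8 each), a rise of 2.54 ± 0.12 (adjusted p = 1.11e-17). CSF1R, through which M-CSF acts, rose to 5453 ± 412 with TGFβ1, against 1928 ± 375 with PBS (adjusted p = 1.38e-11), while CD44, a hyaluronan receptor, fell by 0.46 ± 0.11 (adjusted p = 0.00297).

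Adding TGFβ1 to LPS went with a rise of TREM2 by 1.58 ± 0.12 (adjusted p = 3.57e-12) and of CSF3R by 0.78 ± 0.12 (adjusted p = 9.85e-06; 0.41 within set 1 and 1.16 within set 2). LILRB2, an inhibitory receptor, fell by 1.70 ± 0.33 (adjusted p = 0.000227), where set 1 alone gave -1.24 and set 2 alone -2.16. FCGR1A, the high-affinity IgG receptor, fell by 0.88 ± 0.22 (adjusted p = 0.00349).

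Substrates and effectors had 9 rises and 9 falls among 34 genes with LPS, near the 20.9% and 21% of all probes. The adaptor GAB2 rose by 1.15 ± 0.14 (adjusted p = 3.64e-08) and the transcription factor STAT3 by 1.11 ± 0.08 (adjusted p = 3.23e-13). CAV1, a caveolae protein long known as a Src substrate, fell by 1.99 ± 0.14 (adjusted p = 9.28e-14) with 4 of 8 LPS arrays above background, and the kinase TEC fell by 0.69 ± 0.07 (adjusted p = 1.31e-09). With TGFβ1 against PBS 7 rose and 4 fell. TYK2, a Janus kinase, rose by 0.89 ± 0.10 (adjusted p = 4.16e-08) and LAT2, a membrane adaptor, by 0.58 ± 0.11 (adjusted p = 2e-04). CAV1 fell by 1.83 ± 0.14 (adjusted p = 3.87e-12) and GAB2 by 0.73 ± 0.14 (adjusted p = 0.000293).

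In LPS+TGFβ1 against LPS 3 substrates and effectors rose and 7 fell. SKAP2, an adaptor in integrin signalling, rose by 0.45 ± 0.11 (adjusted p = 0.00283; 0.28 within set 1 and 0.62 within set 2) and LAT2 by 0.33 ± 0.11 (adjusted p = 0.0338). PTK2B, the focal adhesion kinase relative PYK2, fell by 0.61 ± 0.08 (adjusted p = 4.56e-07) and GAB2 by 0.57 ± 0.14 (adjusted p = 0.00418). SYK, the kinase that Src family members activate at receptor tails, fell by 0.24 ± 0.08 with LPS (adjusted p = 0.0158; -0.43 within set 1 and -0.15 within set 2); it was chosen for naming after its value was seen.

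The 6 genes of acylation and chaperoning had 3 rises and 0 falls with LPS. UNC119, which carries lipid-modified kinases through the cell, rose by 0.93 ± 0.09 (adjusted p = 4.07e-10) and the chaperone HSP90AB1 by 0.47 ± 0.07 (adjusted p = 1.77e-06). HSP90AA1 fell with TGFβ1 by 0.21 ± 0.07 (adjusted p = 0.0441; -0.10 within set 1 and -0.27 within set 2), and HSP90AB1 fell by 0.24 ± 0.07 in LPS+TGFβ1 against LPS (adjusted p = 0.0171; -0.11 within set 1 and -0.38 within set 2).

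**Figure D5:**
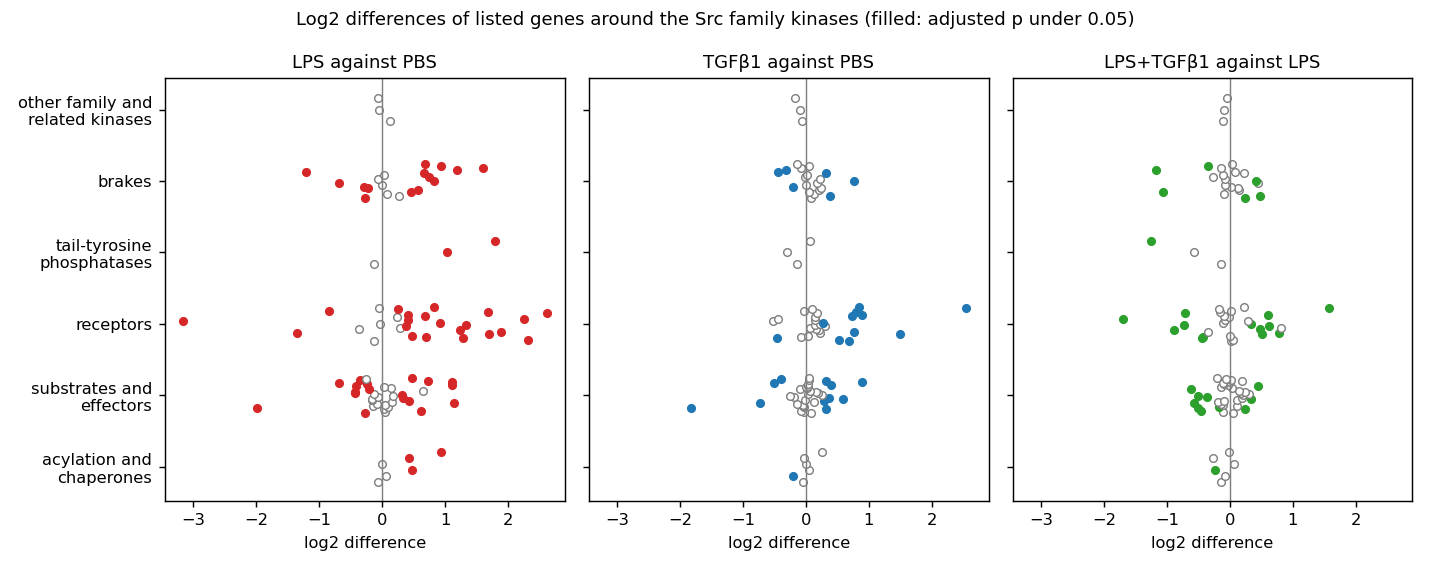
Log2 differences of the 92 tested genes of the 6 lists for LPS against PBS, TGFβ1 against PBS and LPS+TGFβ1 against LPS; each point is a gene, filled where the limma adjusted p was under 0.05. With LPS the receptors had 18 rises and 3 falls among 27, and the substrates had 9 rises and 9 falls among 34.

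The genes whose profile over the 32 arrays was most like that of each kinase were sought among 11792 probes with a symbol, on the log2 scale. For SRC they were SIRPA, a receptor that binds CD47 (Pearson r = 0.971), PHLDA1 (0.966) and FSCN1, which bundles actin (0.965). For LYN they were EPB41L3 (0.992), the inflammatory caspase CASP5 (0.99) and RIN2 (0.988). For FGR they were ADAP2 (0.957), the glucose transporter SLC2A3 (0.954) and MSC (0.953). For FYN they were NRROS (0.908), BATF3 (0.864) and PRR5 (0.823). For YES1 they were NCAM2 (0.933), ATP2B4 (0.93) and UNG, a DNA repair glycosylase (0.929), and for CSK they were LGMN, a lysosomal protease (0.938), XPO6 (0.932) and ARAP1 (0.931). These values describe likeness only, since the arrays share treatments, chips and sets.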

How the data were processed

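RNA of THP-1 cells was measured on 32 Illumina HumanRef-8 V3.0 arrays, and treatments and replicate numbers came from the sample titles. The values are intensity values deposited by the authors, 1 column per array on a linear scale, with medians from 34.5 to 59.3 and a lowest value of -35.4. BeadStudio 3.2 is named per the submitters' processing notes, without a role; for the background correction, the normalization and any centring, a method is not given in the sources used here. A non-normalized table has 64 columns whose headings match no label, and these were not used.

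Values were set to log2(intensity + 50), and the 25% of probes with the lowest mean were left out, which kept 18388 of 24518. Group means were fitted without covariates to the 32 arrays together, using lmFit and eBayes of limma 3.58.1 (R 4.3.3). Tests were two-sided, with Benjamini-Hochberg adjustment over all probes within each of 6 comparisons. Errors are standard errors of the fit unless given as SD. The fit was tested on simulated data with independent noise on every array and no sets or chips. That test therefore cannot show how errors and calls hold with the sets seen here. The background limit of an array was the mode of its dim intensities plus 3 SDs, with the SD taken from intensities under the mode. "At least N-fold" sets the bright group's mean log2 against a floor in the dim group: per array, the dimmest signal over the limit, or the probe's own signal if larger. Probe symbols came from the platform annotation, and a listed gene was read by its probe with the highest mean.

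The 6 genes and the gene lists were chosen with earlier results of these data known. Every probe of the 6 genes is given; of each list, the 2 largest rises and 2 largest falls past the threshold in 3 comparisons are named, and for likeness the 3 genes with the highest Pearson r among probes above background on at least 16 arrays. Alternatives covered other offsets (16 and 100), filters (none, or 50% dropped), scalings, blocks for chip, replicate number and set, single sets and chips, a fit of only the groups compared, and leaving out each replicate number.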

Additional observations from a re-analysis of the deposited data

Results flagged for a closer look

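For 7 of the 11 probes above background the interaction term passed the limma threshold, and all 7 were negative; over all probes tested 2.82% were called higher and 4.46% lower, and nothing is read from the count. The term is the log2 effect of LPS with TGFβ1 minus that without it. It was -3.07 for SRC (ILMN_1729987), -0.65 for LYN, -1.63 and -1.73 for FGR (ILMN_1795158 and ILMN_2368318), -0.44 and -0.50 for FYN (ILMN_2249920 and ILMN_2380801) and -0.70 for CSK. The 6 genes were picked with these contrasts in view, so the terms are a description. The LYN term kept its direction but missed the threshold under both other scalings and without any single one of replicate numbers 2, 3, 4, 5 or 6 (values from -0.65 to -0.61). The FYN term of ILMN_2249920 missed it with an offset of 16 (-0.63), without the filter on dim probes and after scaling to the same median (-0.37), and without any single replicate number other than 3 (-0.46 to -0.34). No array stood apart from the other 7 of its treatment in any of 42 combinations of probe and treatment examined. The LPS arrays of SRC, LYN, YES1 and CSK nevertheless fell into 2 groups of 4 by set, with LYN at 17010 to 20730 in set 1 and 29701 to 35127 in set 2. Such splits were not confined to these genes or to LPS. The LPS arrays of FYN (ILMN_1781207) had 156 to 175 in set 1 and 95.8 to 142 in set 2. LPS+TGFβ1 arrays of LYN, FGR (ILMN_2368318), YES1 and CSK also separated by set, as did the PBS arrays of that FGR probe.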

How the results depend on the processing

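Counts over all probes moved by over 1.5 times in these cases. LPS against PBS had 7705 calls over all arrays, 1613 within chip 1 and 1792 within chip 4. TGFβ1 against PBS had 2434 calls, 3701 with the set as a block, 3824 within set 2, and 142, 1579 and 132 within chips 1, 3 and 4. LPS+TGFβ1 against PBS had 7334, and 1546 and 1723 within chips 1 and 4. LPS+TGFβ1 against LPS had 3367, 5432 with the set as a block, 5391 within set 2, and 90 and 80 within chips 1 and 4. LPS+TGFβ1 against TGFβ1 had 5788, and 683 and 763 within chips 1 and 4. The interaction had 1339, 2559 with the set as a block, 3259 within set 2, and 0 by limma within chips 1 and 4, where 866 and 932 probes had an unadjusted p under 0.05. A single chip held 2 arrays of each treatment, which leaves few degrees of freedom. Chips 2 and 3, with as many arrays, had 7134 and 7248 calls for LPS against PBS and 957 and 1659 for the interaction. Chips 2 and 3 each lay in 1 set, while chips 1 and 4 held arrays of both sets. The cause of the lower counts on chips 1 and 4 was not tested. Without 1 replicate number the counts ran from 6937 to 7554, 1935 to 2284, 6635 to 7268, 2406 to 3421, 5131 to 5606 and 809 to 1158 in the order above, and the interaction had 820 without number 2 and 809 without number 5.

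Same-numbered arrays did not all deviate together: correlations of deviations were 0.126 to 0.724 for 7 of the 8 replicate numbers and as low as -0.203 for number 7, so the numbers were not taken as pairs. The arrays of number 7 lie in different sets, LPS+TGFβ1 and LPS in set 1, TGFβ1 and PBS in set 2. With the replicate block LPS+TGFβ1 against LPS had 5283 calls and the interaction 2342. The block added calls for the 4 interaction terms without one (adjusted p = 0.0411 for SRC ILMN_1685898, 0.0198 and 0.0475 for FYN ILMN_1686555 and ILMN_1781207, 0.0258 for YES1), for FYN ILMN_2249920 in TGFβ1 against PBS (0.0496), YES1 in LPS+TGFβ1 against PBS (0.0119), and SRC ILMN_1685898, YES1 and CSK in LPS+TGFβ1 against TGFβ1 (0.0207, 0.00602 and 0.012).

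Of 1567 values of the 11 probes under the alternatives, 114 moved by more than the spread between arrays and 3 changed sign after a call, all for FYN in LPS+TGFβ1 minus TGFβ1: ILMN_1686555 had 0.00091592 within set 1 and 0.15 within chip 2, and ILMN_1781207 had 0.015 within chip 2. The cause was not tested. Other filters and a fit of only the groups compared leave the group means as they are. The blocks for chip and replicate number hold every treatment in equal number. These settings therefore could not change a difference, and their values, counted in the 1567, say nothing on its stability. The set block and the other scalings could change one, and they moved none. Scaling to a common median shifted the median of all probes by at most 0.0761 log2 units. The planned normexp correction of the non-normalized table was not run. Dim probes (FYN, the second SRC probe) are limited by signal over background.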
